A study of Mus musculus with 12 samples.

Results

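The Isg15 conjugation system was followed at the RNA level in cultured mouse neural stem cells (NSCs). Its 6 members, Isg15, Uba7, Ube2l6, Herc6, Trim25 and Usp18, were taken by gene symbol from a count table of 17365 genes; the rule that picked them uses symbols and no expression value, although earlier results of these data were known when the system was chosen. All 6 were in the table, and all 6 passed the filter on low counts, which left 13454 genes for testing. Bulk RNA-seq had been made from 12 libraries of NSCs derived from the subventricular zone of adult mice aged 6 to 8 weeks. Cells were kept for 3 days in EGF and FGF2 (EGF/FGF, proliferating), in BMP4 alone (BMP, the dormant quiescent state called d-qNSC) or in BMP4 with FGF2 (BMP/FGF, the primed quiescent state called p-qNSC), with each factor at 10 ng/ml. Every condition held 2 libraries of the ANS4 line (MF1 strain) and 2 of the BL6 line (C57BL/6 strain), all unmodified cells, so that line and strain cannot be told apart. Library totals lay between 18069052 and 19451818 counts, and levels are given as CPM, that is, counts scaled to the size of the library, here after TMM normalization. A level of 3 counts corresponds to 0.154 to 0.166 CPM.

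Isg15 is a small ubiquitin-like protein that is joined to other proteins in a reaction called ISGylation. Uba7 is its activating enzyme (E1), Ube2l6 its conjugating enzyme (E2), and Herc6 the main ligase (E3) in mice, where the human ligase gene HERC5 has no counterpart. Trim25 is a further ligase described for Isg15 and is better known for attaching ubiquitin to the RNA sensor RIG-I. Usp18 removes Isg15 from its targets and, independently of that activity, binds the interferon receptor chain Ifnar2 and dampens type I interferon signalling. Genes of the system are classical interferon targets in many tissues.

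Of the 6 members, 5 had a promoter entry in the RefSeq table used (GRCm38.p6). The stretch shown is that of Isg15, the modifier after which the system is named, as context for its changes. It was chosen by position alone, as the 120 bases from -120 to -1 relative to the gene start, which lie at chr4:156200819-156200938 on the minus strand. No motif was searched for and no binding was measured, so no letter is marked.
Isg15: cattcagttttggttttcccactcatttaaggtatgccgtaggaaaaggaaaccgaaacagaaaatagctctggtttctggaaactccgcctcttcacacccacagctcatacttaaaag

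BMP and BMP/FGF were parallel treatments, so a step, rise or fall between conditions compares groups of libraries and is no course in time. In BMP/FGF, RNA of all 6 members was higher than in BMP alone. Each of the 6 passed the test across all genes (edgeR quasi-likelihood F-test, two-sided, Benjamini-Hochberg FDR under 0.05), against 19.9% of all tested genes that were higher. For each of the 6, all 4 BMP/FGF libraries also lay above all 4 BMP libraries, which held for 17.5% of tested genes. A log2 fold change above 1.5 was reached by Isg15, Usp18 and Trim25, 3 of 6, against 0.929% of tested genes. With limma-trend on the deposited log2 values, which shrink low counts, Trim25 fell to 1.11 and 2 of 6 passed. From EGF/FGF to BMP members went both ways. Isg15, Uba7, Herc6 and Usp18 were higher, 4 of 6 against 40.6% of tested genes, and Ube2l6 and Trim25 were lower, 2 of 6 against 38.7%. Many genes moved each way at this step, so this split does not by count set the members apart. Between the outer states, 6 of 6 were higher in BMP/FGF than in EGF/FGF, against 40.8%. Being raised at both steps was seen in 4 of 6 members and 5.73% of tested genes, and being lowered in BMP and raised in BMP/FGF in 2 of 6 and 10.5%. The labels call the replicates biological without saying that they were separate cultures, so p-values measure the spread between these libraries, and in bulk RNA fewer cells of a type and less RNA per cell cannot be told apart.

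**Figure D1:**
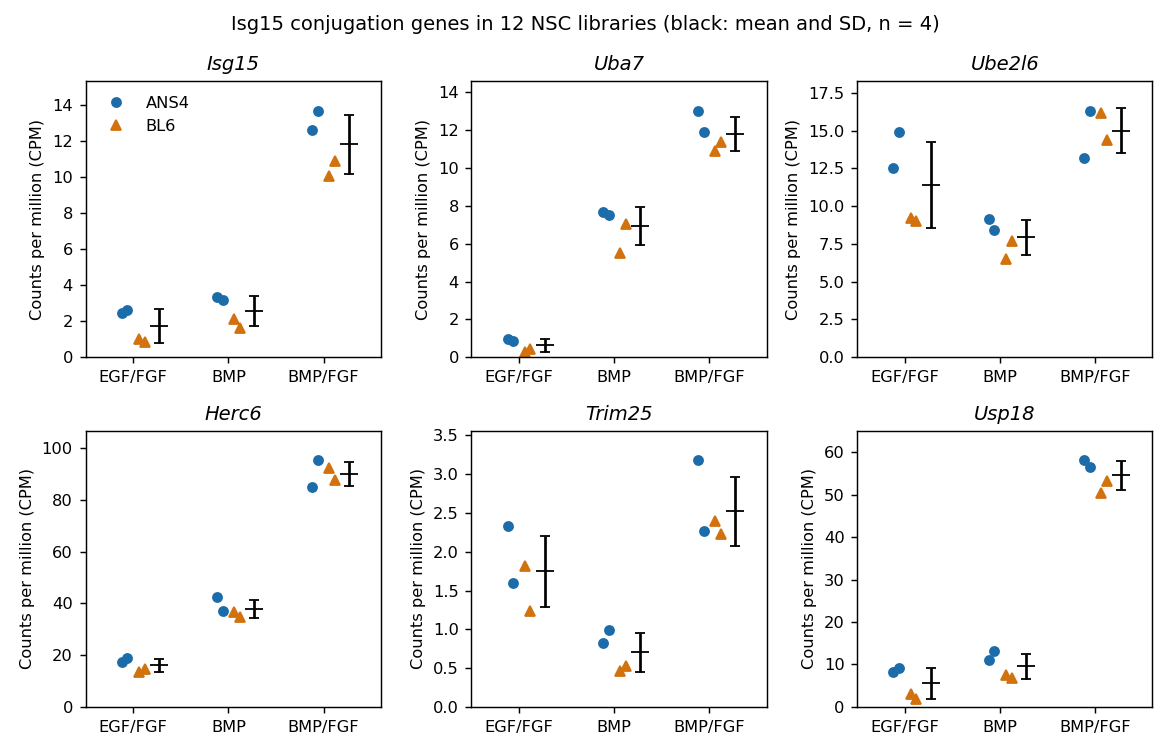
Level of each gene in CPM (vertical axes, each from 0) in the 12 libraries by condition, with circles for ANS4, triangles for BL6 and black marks for the mean and SD (n = 4). For all 6 genes the 4 BMP/FGF points lie above the 4 BMP points, whereas only Ube2l6 and Trim25 have their lowest points in BMP.

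Isg15, the modifier itself (ENSMUSG00000035692, chr4:156199424-156200818 of GRCm38, minus strand, 2 exons), was a gene of low counts. In EGF/FGF it stood at 2.43 and 2.64 CPM in the ANS4 libraries and at 0.989 and 0.827 CPM in the BL6 libraries. In BMP the values were 3.37 and 3.15 CPM in ANS4 and 2.13 and 1.62 CPM in BL6, and in BMP/FGF 12.6 and 13.7 CPM in ANS4 and 10.1 and 10.9 CPM in BL6. Every BMP/FGF library was thus far above every other library, while the EGF/FGF and BMP groups overlapped because ANS4 was high and BL6 low in both. Mean levels were 1.72 ± 0.946, 2.57 ± 0.834 and 11.8 ± 1.64 CPM (SD, n = 4) in EGF/FGF, BMP and BMP/FGF. The log2 fold change from BMP to BMP/FGF was 2.23 (SE 0.17, edgeR FDR 2.26e-08), a 4.70-fold rise. From EGF/FGF to BMP it was 0.59 (SE 0.21, edgeR FDR 0.0172), and an exact permutation test of the log2 levels (0.1 CPM added), which ignores the line, gave p = 0.229 between these groups (n = 4 and 4, two-sided). That earlier step rested on the design. Without the line term it was 0.57 (edgeR FDR 0.109). Within the lines it was 0.36 in ANS4 (edgeR FDR 0.0971) and 1.02 in BL6 (edgeR FDR 0.00181). Leaving out BL6 EGF/FGF replicate 1, BL6 EGF/FGF replicate 2 or ANS4 BMP replicate 1 gave log2 fold changes of 0.49, 0.44 and 0.53 with FDR of 0.057, 0.063 and 0.0511 (edgeR).

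Usp18, which reverses the conjugation (ENSMUSG00000030107, chr6:121245906-121270917, plus strand, 11 exons), had the same pattern at a higher level. Its values were 8.24 and 9.15 CPM in ANS4 and 2.97 and 1.97 CPM in BL6 in EGF/FGF. They were 10.99 and 13.1 CPM in ANS4 and 7.57 and 6.82 CPM in BL6 in BMP. In BMP/FGF they came to 58.1, 56.5, 50.3 and 53.1 CPM in the same order. Again the BMP/FGF group stood alone, and the other groups overlapped across the lines. Usp18 had the largest BMP to BMP/FGF change of the 6 members, 2.56 on the log2 scale (SE 0.20, edgeR FDR 2.95e-08), or 5.90-fold. The step from EGF/FGF to BMP was 0.83 (SE 0.23, edgeR FDR 0.00351), whereas the exact permutation p, blind to the line, was 0.2.

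Uba7, the activating enzyme (ENSMUSG00000032596, chr9:107975505-107984060, plus strand, 24 exons), changed mainly at the other step. In EGF/FGF it was close to the limit of detection, at 0.984 and 0.879 CPM in ANS4 and 0.260 and 0.414 CPM in BL6, or 5 to 19 counts a library. In BMP it reached 7.67, 7.53, 5.495 and 7.03 CPM, and in BMP/FGF 13.0, 11.9, 10.9 and 11.4 CPM (ANS4 first, then BL6). The 3 conditions did not overlap. Uba7 was 10.9-fold higher in BMP than in EGF/FGF (log2 3.44, SE 0.20, edgeR FDR 3.24e-11), the largest change of any member at that step, at which BMP4 was added and both EGF and FGF2 were withdrawn. The few counts in EGF/FGF left the size uncertain: it was 8.11-fold in ANS4 and 18.1-fold in BL6, and 4.61-fold with limma-trend on the deposited log2 values (edgeR and limma FDR under 0.05 in each). With FGF2 beside BMP4, Uba7 was 1.71-fold higher than with BMP4 alone (log2 0.77, SE 0.13, edgeR FDR 0.000208), the smallest difference of the 6.

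Herc6, the ligase (ENSMUSG00000029798, chr6:57581000-57664632, plus strand, 23 exons), rose by like amounts at both steps. It was at 17.5, 19.1, 13.6 and 14.6 CPM in EGF/FGF, at 42.7, 36.9, 36.8 and 34.9 CPM in BMP, and at 85.0, 95.4, 92.4 and 87.8 CPM in BMP/FGF (ANS4 first). None of the groups overlapped, and in BMP/FGF both BL6 libraries lay between the ANS4 libraries. The log2 fold changes were 1.23 (SE 0.09, edgeR FDR 3.05e-10) from EGF/FGF to BMP and 1.26 (SE 0.08, edgeR FDR 2.79e-09) from BMP to BMP/FGF, 2.34-fold and 2.39-fold.

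Ube2l6, the conjugating enzyme (ENSMUSG00000027078, chr2:84798828-84810335, plus strand, 4 exons), changed by less than 2-fold in each comparison over both lines. Its EGF/FGF values were 12.5 and 14.9 CPM in ANS4 and 9.21 and 9.00 CPM in BL6. BMP libraries held 9.16, 8.41, 6.48 and 7.71 CPM and BMP/FGF libraries 13.2, 16.3, 16.1 and 14.4 CPM. BMP was the lowest group, with 1 of its libraries (ANS4 replicate 1, 9.16 CPM) above the lowest EGF/FGF library (BL6 replicate 2, 9.00 CPM). The fall from EGF/FGF to BMP was 1.43-fold (log2 -0.52, SE 0.13, edgeR FDR 0.00168, exact permutation p = 0.0571). The rise to BMP/FGF was 1.90-fold (log2 0.93, SE 0.13, edgeR FDR 2.41e-05). Between the outer states the groups overlapped: the log2 difference was 0.41 (SE 0.12, edgeR FDR 0.00592, exact permutation p = 0.0857), and by line it was 0.09 in ANS4 (edgeR FDR 0.528) and 0.73 in BL6 (edgeR FDR 8.64e-05).

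Trim25 (ENSMUSG00000000275, chr11:88999376-89020293, plus strand, 9 exons) had 9 to 59 counts a library, the fewest together with Isg15 and Uba7 in their low conditions. It was at 2.33, 1.60, 1.82 and 1.24 CPM in EGF/FGF, at 0.828, 0.996, 0.467 and 0.521 CPM in BMP and at 3.18, 2.26, 2.40 and 2.23 CPM in BMP/FGF (ANS4 first). The 4 BMP libraries were below all others. Trim25 was 2.50-fold lower in BMP than in EGF/FGF (log2 -1.32, SE 0.25, edgeR FDR 0.00011). It was 3.60-fold higher in BMP/FGF than in BMP (log2 1.85, SE 0.24, edgeR FDR 1.13e-05). BMP/FGF and EGF/FGF overlapped, at a log2 difference of 0.53 (SE 0.21, edgeR FDR 0.0258, exact permutation p = 0.0857). That last call was lost with either line alone and in DESeq2 (adjusted p = 0.0605). It was also lost without 1 of 5 libraries: ANS4 EGF/FGF replicate 2 (log2 0.40), BL6 EGF/FGF replicate 2 (0.44), ANS4 BMP/FGF replicate 1 (0.46), BL6 BMP/FGF replicate 1 (0.48) or BL6 BMP/FGF replicate 2 (0.52), with edgeR FDR of 0.0516 to 0.109.

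The exact permutation test was run for 18 comparisons of members between conditions. The comparisons whose groups did not overlap gave p = 0.0286, the smallest p that 4 libraries against 4 allow in this exact test. These were all 6 between BMP/FGF and BMP, then Uba7, Herc6 and Trim25 between BMP and EGF/FGF, and Isg15, Usp18, Uba7 and Herc6 between BMP/FGF and EGF/FGF.

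The members differed in the step at which they changed. Relative to the log2 difference between EGF/FGF and BMP/FGF, that between EGF/FGF and BMP came to 20.9% in Isg15 and 24.4% in Usp18. It came to 81.7% in Uba7 and 49.4% in Herc6. By line these shares were 15.4% in ANS4 and 29.2% in BL6 for Isg15, 17.3% and 35.0% for Usp18, 81.1% and 83.4% for Uba7, and 49.0% and 50.0% for Herc6. The whole log2 changes were 2.82 for Isg15, 3.39 for Usp18, 4.22 for Uba7 and 2.49 for Herc6. Ube2l6 and Trim25 had their lowest mean level in BMP. These shares have no test of their own, and the comparisons share the BMP libraries.

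**Figure D2:**
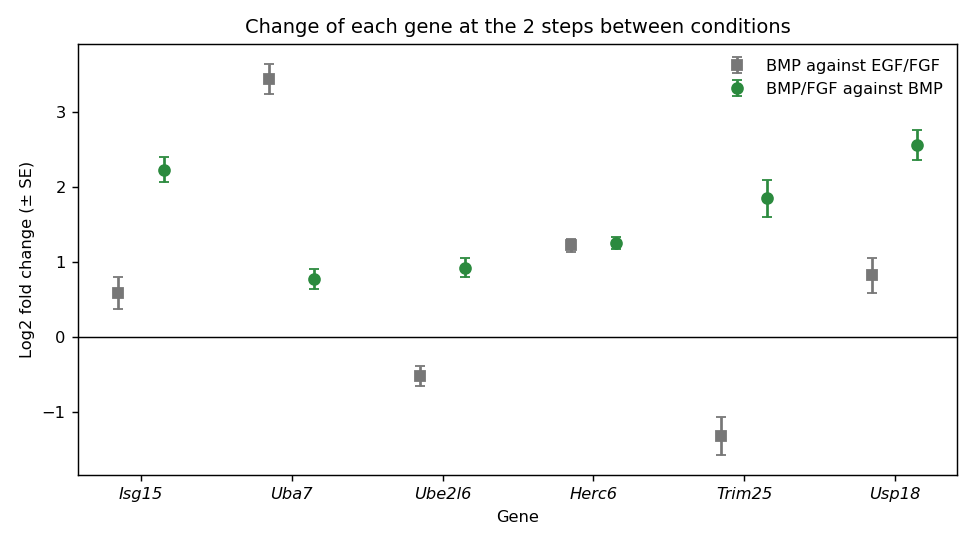
Log2 fold change (vertical axis, with SE from the edgeR fit to 12 libraries) of each gene from EGF/FGF to BMP (grey squares) and from BMP to BMP/FGF (green circles). Uba7 stands out at the first step (3.44) and Usp18 and Isg15 at the next (2.56 and 2.23), while Ube2l6 and Trim25 lie below 0 at the first step.

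Unequal movement of enzymes and modifier was examined with the log2 ratio of each member's counts to those of Isg15 in the same library. To both 0.5 count was added, and exact permutation tests that ignore the line were used (15 comparisons, two-sided, smallest possible p 0.0286). Relative to Isg15, Uba7 was 7.36-fold higher in BMP than in EGF/FGF (log2 2.88, exact p = 0.0286) and 2.76-fold lower in BMP/FGF than in BMP (log2 -1.47, exact p = 0.0286). Its log2 ratio went from between -1.83 and -0.96 in EGF/FGF to between 1.18 and 2.10 in BMP and between -0.20 and 0.12 in BMP/FGF. Ube2l6 was lower relative to Isg15 in BMP than in EGF/FGF (-1.19) and in BMP/FGF than in BMP (-1.32, log2, exact p = 0.0286 for both). Its counts were 5.69-fold fewer relative to Isg15 in BMP/FGF than in EGF/FGF. Trim25 was lower by 2.00 relative to Isg15 in BMP than in EGF/FGF (exact p = 0.0286). It differed by -0.39 between BMP/FGF and BMP (exact p = 0.143), a difference within the spread of the libraries.

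Herc6 was 1.98-fold lower relative to Isg15 in BMP/FGF than in BMP (log2 -0.99, exact p = 0.0286). Its ratio differed by 0.55 between BMP and EGF/FGF (exact p = 0.257) and by -0.44 between BMP/FGF and EGF/FGF (exact p = 0.286). The lines stood apart in it: in EGF/FGF it was 2.83 and 2.84 in ANS4 and 3.75 and 4.10 in BL6. In BMP it was 3.65 and 3.54 in ANS4 and 4.10 and 4.41 in BL6, and in BMP/FGF 2.75 and 2.80 in ANS4 and 3.20 and 3.01 in BL6. Taken over both lines, Usp18, the removing enzyme, shifted least against the modifier at each single step. Over the whole distance from EGF/FGF to BMP/FGF Herc6 shifted less. The Usp18 log2 ratio to Isg15 was 1.58 ± 0.26, 1.90 ± 0.18 and 2.21 ± 0.12 in EGF/FGF, BMP and BMP/FGF (SD, n = 4). For Usp18 only the outer states parted, by 0.63 or 1.55-fold (exact p = 0.0286), against 0.31 between BMP/FGF and BMP (exact p = 0.0571) and 0.33 between BMP and EGF/FGF (exact p = 0.114).

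**Figure D3:**
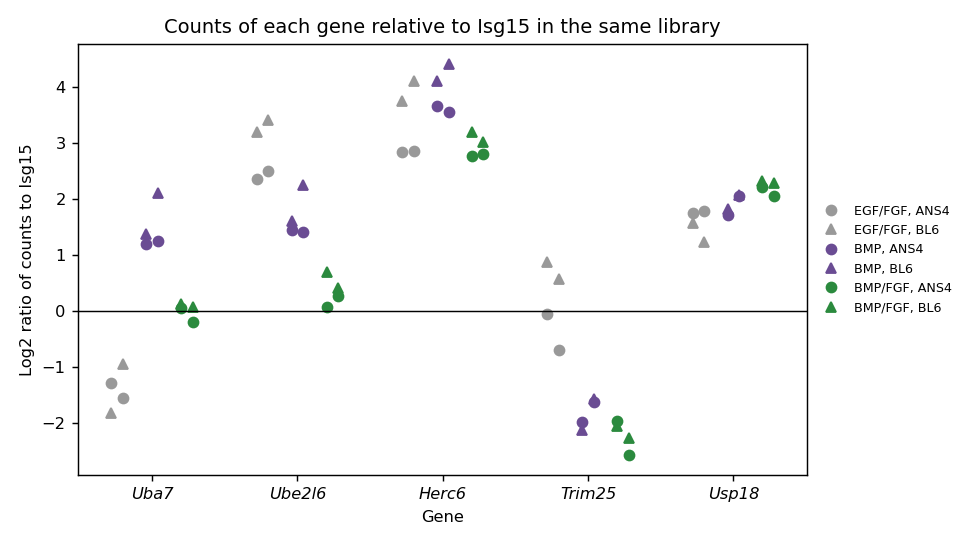
Log2 ratio of the counts of 5 genes to those of Isg15 in each of the 12 libraries (grey EGF/FGF, purple BMP, green BMP/FGF, circles ANS4, triangles BL6). The Uba7 points are highest in BMP and near 0 in BMP/FGF. Those of Ube2l6 are highest in EGF/FGF and lowest in BMP/FGF, and those of Usp18 lie between 1.22 and 2.32 in all libraries.

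Divided by the length of the longest coding transcript, the levels could be set side by side as CPM per kilobase. In EGF/FGF the order was Ube2l6 (7.32), Herc6 (3.39), Usp18 (3.15), Isg15 (2.28), Trim25 (0.313) and Uba7 (0.199). There Herc6, Usp18 and Isg15 overlapped, as did Trim25 and Uba7, and the order of Usp18 and Herc6 turned with the line (4.91 and 3.83 CPM per kilobase in ANS4, 1.39 and 2.95 in BL6). In BMP, Herc6 (7.93 CPM per kilobase) came first, followed by Usp18 (5.43), Ube2l6 (5.09), Isg15 (3.39), Uba7 (2.17) and Trim25 (0.126), and each overlapped its neighbour except Uba7 and Trim25. Usp18 was above Ube2l6 in ANS4 (6.79 and 5.63 CPM per kilobase) and below it in BL6 (4.06 and 4.55). In BMP/FGF, Usp18 led at 30.8 CPM per kilobase (28.4 to 32.8), ahead of Herc6 (18.9), Isg15 (15.6), Ube2l6 (9.62), Uba7 (3.70) and Trim25 (0.451). Of these neighbours, Herc6 (17.8 to 20.01) and Isg15 (13.3 to 18.1) overlapped. The conjugating enzyme thus had the highest level per length in EGF/FGF, and the removing enzyme in BMP/FGF. The isoforms used in these cells were not measured here, so these levels depend on the transcript chosen.

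For every member except Trim25 the difference between the lines was largest in EGF/FGF, and Trim25 differed most in BMP (-0.89, edgeR FDR 0.152). Within EGF/FGF, 5 of 6 members were lower in BL6 than in ANS4, against 3.7% of 13641 genes tested in the fit with 6 groups of line and condition. This comparison was chosen after the data had been seen. The log2 differences, BL6 minus ANS4, were -1.82 (SE 0.17) for Usp18, -1.47 (SE 0.25) for Isg15, -1.45 (SE 0.40) for Uba7, -0.59 (SE 0.13) for Ube2l6 and -0.37 (SE 0.11) for Herc6, with edgeR FDR from 5.35e-06 to 0.0436. Trim25 differed by -0.36 (edgeR FDR 0.518). Of these calls, those of Usp18 and Isg15 were kept whichever library was left out. Only 2 of 6 remained without ANS4 EGF/FGF replicate 2, BL6 EGF/FGF replicate 1 or BL6 EGF/FGF replicate 2, and 3 of 6 without ANS4 EGF/FGF replicate 1 or any single BMP/FGF library.

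In BMP, Isg15 (-0.81, SE 0.20, edgeR FDR 0.00805) and Usp18 (-0.75, SE 0.14, edgeR FDR 0.000787) were lower in BL6, 2 of 6 against 11.6% of tested genes. The Isg15 call was lost without ANS4 BMP replicate 1 (-0.77, edgeR FDR 0.0522) or BL6 BMP replicate 2 (-0.61, edgeR FDR 0.0802). In BMP/FGF, 0 of 6 differed between the lines. Of 13641 tested genes, 75 were higher and 23 (0.169%) lower in BL6, so 0 of 6 lies near the share of all genes. At an unadjusted p under 0.05, 1 of the 6 differed, Isg15 (-0.33, SE 0.13). DESeq2 called 0, but it gave no adjusted p for 5 of the 6 members. The other differences in BMP/FGF lay between -0.23 and 0.05, those of Ube2l6 (0.05), Herc6 (-0.0012) and Trim25 (-0.23) with signs that turned under other settings.

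**Figure D4:**
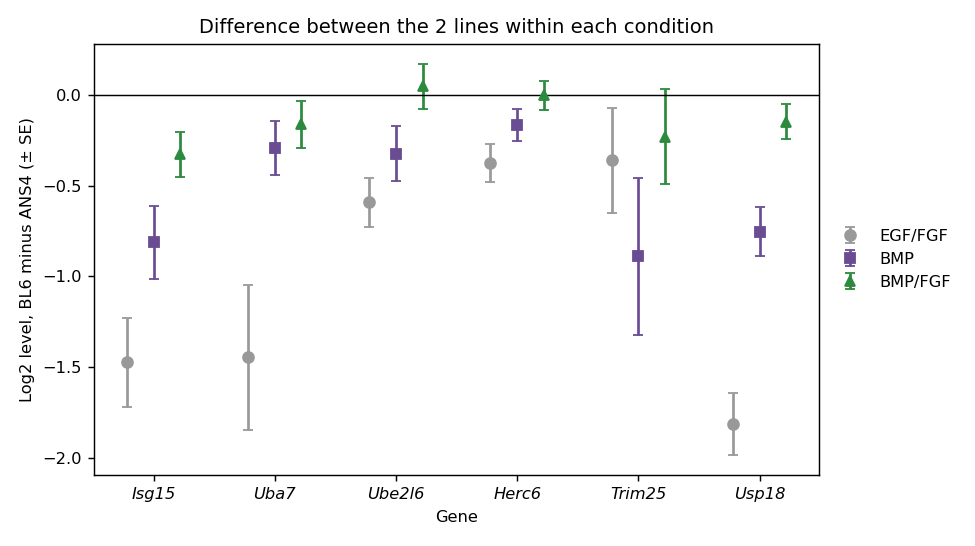
Difference in log2 level between BL6 and ANS4 (vertical axis, with SE from the edgeR fit to 6 groups) for each gene in EGF/FGF (grey), BMP (purple) and BMP/FGF (green). Isg15, Uba7 and Usp18 lie at or below -1.45 in EGF/FGF, and all 6 genes lie between -0.33 and 0.05 in BMP/FGF.

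The difference between the lines was itself tested for each change. From BMP to BMP/FGF, Usp18 rose by 2.24 in ANS4 and by 2.85 in BL6 on the log2 scale, a line difference of 0.61 (SE 0.17, edgeR FDR 0.0222), and it was the only 1 of 6 members called, against 13.5% of tested genes. That call was lost without ANS4 BMP replicate 2 (0.48), BL6 BMP replicate 2 (0.51), ANS4 BMP/FGF replicate 1 (0.63), ANS4 BMP/FGF replicate 2 (0.58), BL6 BMP/FGF replicate 1 (0.65) or BL6 BMP/FGF replicate 2 (0.56), with edgeR FDR of 0.0504 to 0.124. From EGF/FGF to BMP, Usp18 rose by 0.47 in ANS4 and by 1.53 in BL6, a line difference of 1.06 (SE 0.22, edgeR FDR 0.00755), again 1 of 6 against 8.49%. Without BL6 EGF/FGF replicate 2 it was 0.81 (edgeR FDR 0.0639), and without BL6 BMP replicate 1 Uba7 joined it (1.34, edgeR FDR 0.0348).

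From EGF/FGF to BMP/FGF, a contrast added after the data had been seen, 2 of 6 members differed between the lines, against 4.82% of tested genes. Usp18 rose by 2.71 in ANS4 and by 4.38 in BL6, a line difference of 1.67 (SE 0.20, edgeR FDR 0.000118). Isg15 rose by 2.36 in ANS4 and by 3.51 in BL6, a line difference of 1.15 (SE 0.28, edgeR FDR 0.0261). The Usp18 call was kept whichever library was left out. That of Isg15 was lost without any single EGF/FGF or BMP/FGF library (line differences of 1.02 to 1.28, edgeR FDR 0.0635 to 0.122), and DESeq2 gave it no adjusted p. The line differences of Uba7 (1.29), Ube2l6 (0.64), Herc6 (0.37) and Trim25 (0.13) did not pass.

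Genes around the system were read from the same fit, by lists chosen for their described roles. Of all 13454 tested genes, 2682 (19.9%) were higher and 2856 lower in BMP/FGF than in BMP, beside which the list counts are to be read. The median log2 fold change of all tested genes between BMP/FGF and BMP was -0.004. The median of the 6 members was 1.55. Other ligases and proteases described for Isg15 had a median of 0.08, with 1 of 7 higher (Usp16, 0.34) and 1 of 7 lower (Usp13, -0.32) in BMP/FGF. Arih1, a ligase with a high level in that list, differed by 0.08 (edgeR FDR 0.329). By library size alone 3 of the 7 were lower.

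Proteins described as Isg15 substrates had 4 of 17 genes higher, near the 19.9% of all tested genes, 2 lower and a median of -0.006. Among the higher genes were Eif2ak2 (0.99), Ddx58 (0.86) and Mx1, interferon-induced genes themselves, named here after their values were seen. Eif2ak2 and Ddx58 encode the RNA sensors PKR and RIG-I. Mx1 was at 0.148 CPM in BMP, under the level of 3 counts, and at 1.29 CPM in BMP/FGF, so no fold is given. Pcna was among the lower genes (-0.26), and Ube2n, with a high level, differed by 0.11 (not called).

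The machinery of other ubiquitin-like proteins (ubiquitin, SUMO, Nedd8, Ufm1, Urm1 and the Atg12 group) moved within a narrow band. Of 27 genes, 9 were higher and 2 lower, the median was 0.12, and the largest rise was 0.32 in Ufl1, the Ufm1 ligase. With scaling by library size alone the split was 7 higher and 5 lower. Ube2l3, the closest E2 relative of Ube2l6 in the list, differed by 0.12 (edgeR FDR 0.251), and Uba1, the ubiquitin E1, was lower by -0.22 (edgeR FDR 0.0041).

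Of the other Herc genes, 0 of 4 were higher in BMP/FGF. Herc1 (-0.68), Herc2 (-0.63) and Herc3 (-0.20) were lower and Herc4 differed by 0.14 (edgeR FDR 0.0734), in contrast to 1.26 for Herc6. The other Trim genes with described antiviral or sensing roles were raised in 5 of the 9 tested, with a median of 0.76 and the largest rise in Trim30a (2.30), from 7.57 to 36.8 CPM. Trim26 differed by -0.0018 (edgeR FDR 0.989), and Trim12a was too low to be tested. Among 13 regulators of interferon signalling, 7 were higher and 1 lower, with a median of 0.22. Irf7 rose most (1.94), and Socs3, an inhibitor of cytokine signalling, was the lower gene (-0.33). DESeq2's size factors gave 5 higher and 1 lower, and library size alone 4 and 1. Ifnar2, the receptor chain that Usp18 binds, changed by 0.22 (edgeR FDR 0.0432).

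**Figure D5:**
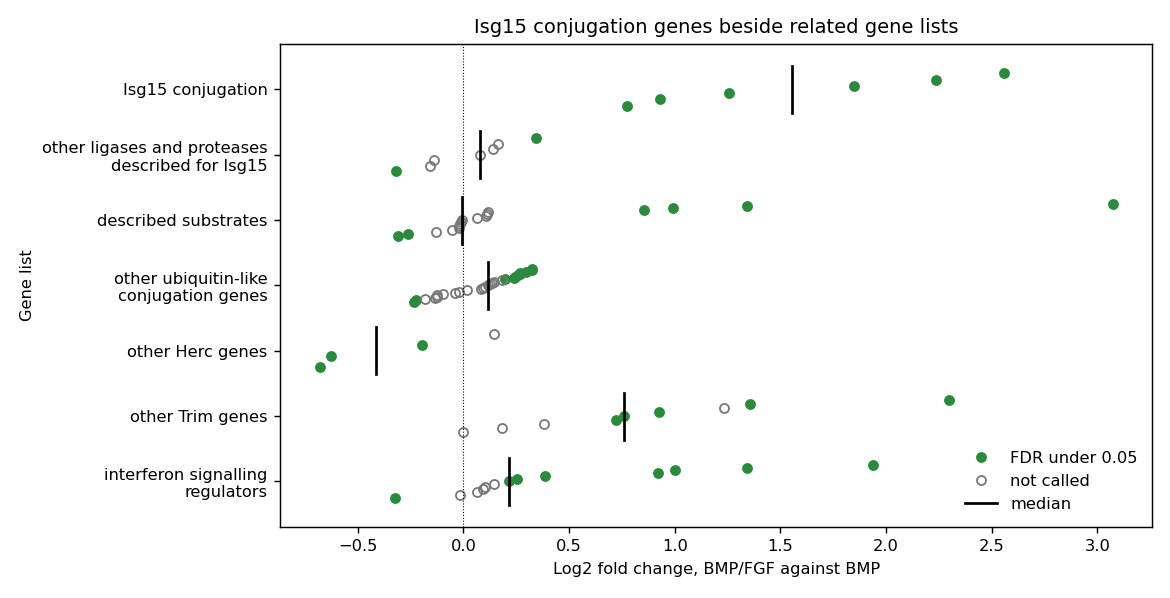
Log2 fold change from BMP to BMP/FGF (horizontal axis) of every tested gene in the 7 lists (vertical axis), with filled points for edgeR FDR under 0.05, open points for genes not called and a bar at each median. The 6 conjugation genes lie between 0.77 and 2.56, the other ubiquitin-like genes reach at most 0.32, and the point at 3.07 among the substrates is Mx1, a gene at the detection limit in BMP.

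From EGF/FGF to BMP the same lists gave 1 higher and 4 lower of the 7 other ligases and proteases, 4 and 7 of the 17 substrates, 7 and 15 of the 27 ubiquitin-like genes, 1 and 1 of the 4 Herc genes, 6 and 0 of the 9 Trim genes and 7 and 4 of the 13 regulators. Of all 13454 tested genes, 40.6% were higher and 38.7% lower in this comparison. The largest falls were those of Usp14 (-1.12) and Pcna (-2.03), the DNA replication clamp, and Trim34a rose most in its list (1.92). From EGF/FGF to BMP/FGF the counts were 0 and 4, 6 and 8, 11 and 12, 0 and 3, 9 and 0, and 8 and 1 in that order. There 5490 (40.8%) of the 13454 genes were higher and 5091 lower.

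Across the 12 libraries, the log2 CPM of members was compared with the mean of their standardised profiles. Pearson's r was 0.99 for Isg15 and for Usp18, 0.90 for Herc6, 0.77 for Ube2l6, 0.74 for Uba7 and 0.64 for Trim25. Among pairs it was highest for Isg15 with Usp18 (0.99) and lowest for Uba7 with Trim25 (-0.011), while Uba7 went with Herc6 (0.93) and Ube2l6 with Trim25 (0.86). The 12 points fall into 3 conditions and each library enters both sides, so these values describe the profiles and carry no test. Each member is also part of the mean it was compared with, which raises its r, and the genes outside the system are not. The 5 genes outside the system with the most similar profile were Lgals9 (0.99), Rtp4 (0.99), Rsad2 (0.99), Irf7 (0.98) and Ifi44 (0.98). Their levels rose from 6.16 ± 1.64 to 21.9 ± 1.54 CPM for Lgals9, from 12.6 ± 2.88 to 53.4 ± 1.801 CPM for Rtp4, and from 14.5 ± 1.83 to 54.8 ± 1.87 CPM for Rsad2 between BMP and BMP/FGF (SD, n = 4). Irf7 went from 6.85 ± 1.86 to 25.5 ± 0.742 CPM and Ifi44 from 2.37 ± 0.885 to 16.2 ± 1.19 CPM.

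Markers of the labelled cell type were high in all libraries: the summed level of 6 NSC and astrocyte genes was 7145 to 7748 CPM in EGF/FGF, 9311 to 10480 CPM in BMP and 12300 to 12740 CPM in BMP/FGF. Of 12 microglial markers 6 were in the table, with sums of 13.0 to 18.95, 5.81 to 7.55 and 9.38 to 12.02 CPM in the same order. Csf1r was at 0 in all BMP libraries, and Csf1r and Tmem119 were at most 0.224 CPM in any library. Sums of 4 ependymal markers were 61.9 to 81.7, 182.4 to 220.7 and 189.2 to 197.1 CPM, and those of 5 oligodendrocyte markers 12.6 to 15, 149.3 to 173.9 and 240.4 to 249.3 CPM. Endothelial and mural markers (3 of 5 in the table) summed to 37.4 to 46.2, 5.57 to 7.45 and 14.9 to 18.6 CPM, and neuroblast markers (5) to 287.1 to 316.8, 715.6 to 1287 and 308.5 to 349.3 CPM. The NSC and astrocyte, oligodendrocyte, microglial and endothelial sums were higher, and the neuroblast sum lower, in BMP/FGF than in BMP without overlap, and their part in the members' changes was not tested.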

How the data were processed

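RNA was extracted by the authors on columns with a DNase step, and libraries were made with a low-input protocol for the BGISEQ-500RS. The submitters' processing notes name Trim Galore 0.5.0, kallisto 0.44.0 and DESeq2 1.27.32, and the mm10 build. Reads were pseudoaligned to transcripts and summed to genes with Tximport, and the authors deposited estimated counts per gene as whole numbers. A second deposited table holds log2 values (the regularised logarithm of DESeq2) and served in 1 alternative. Whether reads were counted by strand is not given in the sources used here. Of each member's 31-base words, 0.628% (Trim25) to 15.5% (Ube2l6) also occur in GENCODE vM21 transcripts of other genes, from which reads could be shared.

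Counts were filtered with filterByExpr on the design (3911 genes left out), scaled by TMM and fitted with glmQLFit and glmQLFTest of edgeR 4.0.16 (R 4.3.3) on all 12 libraries with condition and line as terms. Two-sided p-values of every gene in a fit were corrected together (Benjamini-Hochberg), and genes at FDR under 0.05 were called. Line differences came from a fit with 6 groups of line and condition. Exact permutation tests (scipy 1.17.1) used log2 of CPM with 0.1 added and all 70 ways to divide 8 libraries. Python 3.11.15, numpy 2.4.6, pandas 2.3.3 and matplotlib 3.10.9 were also used. Alternatives were DESeq2 size factors and Wald test (DESeq2 1.42.0), library size only, no filter, no line term, each line alone, a replicate block, a fit to only the 8 libraries in question, limma-trend on the deposited log2 values (limma 3.58.1), other pseudocounts and each library left out.

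Genes named are the members, up to 4 of each list (the largest rise, the largest fall and the highest levels), and the 5 genes most correlated with the members' mean profile. The lists had 7 ligases and proteases, 17 substrates, 27 ubiquitin-like genes, 4 Herc genes, 10 Trim genes and 13 regulators. Of these, 3 genes are in both the substrate and the regulator list. For some list genes the single values are not reported here, whereas the counts and medians include them. Members and lists were chosen with earlier results of these data known. The edgeR and DESeq2 steps for BMP/FGF against BMP, and an edgeR line difference, were checked first on simulated counts with known changes. The limma-trend step was checked on plain log2 CPM of such counts, not on regularised logarithms like those deposited. The exact permutation tests, ratios and correlations were not checked in this way. Positions are those of GENCODE vM21 (GRCm38), and the Isg15 promoter stretch is from RefSeq. Counting precision is limited by depth, with 3 counts as the floor.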

Additional observations from a re-analysis of the deposited data

Results flagged for a closer look

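Values were singled out where the change between conditions differed between the ANS4 and BL6 lines by an interaction test (edgeR, FDR under 0.05). The change of Usp18 from BMP to BMP/FGF was larger in BL6 by 0.61 on the log2 scale, and its change from EGF/FGF to BMP was larger in BL6 by 1.06. Over the whole distance from EGF/FGF to BMP/FGF, the line difference was 1.67 for Usp18 and 1.15 for Isg15, a contrast added after the data had been seen. In each case the level in the first condition named was lower in BL6. Usp18 was the only member called at each single step, against 13.5% of tested genes from BMP to BMP/FGF and 8.49% from EGF/FGF to BMP. The first of these counts lies near the share of all genes. Over all settings the Usp18 line difference ran from 0.48 to 0.73 at that step. Apart from the 1.67 for Usp18, these calls depended on single libraries, as described with the line differences above. The lines come from different mouse strains and each is a single line, so that strain and line cannot be told apart. Among the 18 groups of 4 libraries (6 genes in 3 conditions), 0 held a library that stood apart by Dixon's criterion. Each group holds both lines, and a difference between them widens its range, so the criterion could miss an outlying library.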

How the results depend on the processing

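Between BMP/FGF and BMP, 6 of 6 members stayed called under every alternative run. Over 414 recomputed log2 fold changes (23 settings, 3 comparisons), 400 kept direction and side of the threshold, 14 lost the call and 0 turned. Leaving out a library left 5 to 6 members called from EGF/FGF to BMP and from EGF/FGF to BMP/FGF. The Usp18 to Isg15 ratio between BMP/FGF and BMP was 0.33 with 2 counts added (exact permutation p = 0.0286), now past the threshold. Leaving out a library leaves a single one in its group of line and condition, so counts of line differences from those fits are not given here. Over all settings the Usp18 line difference ran from 0.48 to 0.73 from BMP to BMP/FGF and from 0.81 to 1.40 from EGF/FGF to BMP. From EGF/FGF to BMP/FGF it ran from 1.40 to 1.99. At this last change, 1 member was called in DESeq2 and 4 with only the 8 libraries compared. Genes called there numbered 467 above and 203 below 0 in DESeq2, and 945 and 721 of 13442 with the 8 libraries. The main fit gave 420 and 238 of 13641. With no filter, 3 members were lower in BL6 in EGF/FGF, as were 402 of 17365 genes, against 505 of 13641 in the main fit. Over all settings, BL6 minus ANS4 in EGF/FGF ran from -2.14 to -1.55 for Usp18 and from -1.61 to -1.35 for Isg15. It ran from -1.81 to -1.16 for Uba7, from -0.71 to -0.47 for Ube2l6 and from -0.43 to -0.31 for Herc6. In BMP it ran from -1.01 to -0.61 for Isg15 and from -0.88 to -0.62 for Usp18. With a library left out, small line differences turned sign: Uba7 from BMP to BMP/FGF ran from -0.053 to 0.30 (turned without BL6 BMP replicate 1), and Trim25 from EGF/FGF to BMP/FGF from -0.17 to 0.43 (turned without ANS4 EGF/FGF replicate 1, and at -0.12 and -0.10 without BL6 EGF/FGF replicate 2 and ANS4 BMP/FGF replicate 2). Within BMP/FGF, BL6 minus ANS4 ran from -0.099 to 0.20 for Ube2l6 (-0.041 without BL6 replicate 1), from -0.083 to 0.075 for Herc6 (0.028 without BL6 replicate 2) and from -0.46 to 0.034 for Trim25, and for Herc6 it was 0.000684 with DESeq2 size factors and 0.000682 in DESeq2. Causes were not tested. All genes past log2 1.5 numbered 125, against 39 with limma-trend on the deposited log2 values. The BL6 BMP libraries differed most from each other, with a chi-square per degree of freedom of 12.38 between replicates. In the other groups of line and condition it was 2.14 to 4.76. Replicate numbers were not taken to pair the libraries: same-numbered deviations correlated at -0.076 to 0.060 over all genes in the 6 combinations of line and comparison, and at -0.18 to 0.31 over 9967 well-expressed genes, highest for ANS4 between BMP and EGF/FGF. With the replicate block 6 of 6 members stayed called in each comparison, and over all genes 2364 were higher and 2694 lower in BMP/FGF than in BMP. With the ANS4 BMP/FGF numbers crossed, added after the data were seen, these were 2417 and 2734. Counts of 5 to 61 per library limit Isg15, Uba7 and Trim25 in their lower conditions.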
